A study of Mus musculus with 9 samples.

Results

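The MYC and MAX network was followed through pluripotent states as 10 genes: the MYC paralogues Myc, Mycn and Mycl, their shared partner Max, and the genes for the other proteins that pair with MAX, which are Mxd1, Mxd3, Mxd4, Mxi1, Mnt and Mga. The members were chosen by name, as a known family, from the 38293 genes of a table of RNA-seq read counts, and all 10 were present and passed the filter on low counts in each comparison. The table held 9 libraries from the mouse embryonic stem cell line E14 (129/Ola), with 3 libraries per group. The mESC-2i cells were grown in N2B27 medium with the MEK inhibitor PD0325901 at 1 µM, the GSK3 inhibitor CHIR99021 at 3 µM and leukaemia inhibitory factor (LIF) at 10 ng/mL. The titles of these libraries also carry the tag LT, which the other titles lack. The mESC-ser cells were grown on gelatin in DMEM with 15% foetal bovine serum and LIF at 10 ng/mL, and their label calls them primed. The EpiLC (epiblast-like cells) came from naive cells kept on fibronectin in N2B27 with activin A at 20 ng/mL, bFGF at 12 ng/mL and KSR (a serum replacement) at 1%, with no LIF or inhibitors named. All groups share 1 cell line. The comparisons asked how expression of the network differs between the naive, serum-grown and epiblast-like states.

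MYC proteins bind DNA as heterodimers with MAX, a small helix-loop-helix zipper protein, at E-box sequences, and activate genes for ribosome production, nucleotide synthesis and growth. MXD proteins, MXI1, MNT and MGA compete for the same partner and bring corepressors to the same sites. In embryonic stem cells MYC and MYCN act partly in place of each other in self-renewal, and MGA with MAX holds a Polycomb complex (PRC1.6) at germline genes.

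In mm10, the paralogue Myc (ENSMUSG00000022346) lies on the plus strand at chr15:61985391-61990374, Mycn (ENSMUSG00000037169) on the minus strand at chr12:12936093-12941914 and Mycl (ENSMUSG00000028654) on the plus strand at chr4:122995652-123002485. Max (ENSMUSG00000059436) lies on the minus strand at chr12:76937269-76962201. On the minus strand are Mxd1 (ENSMUSG00000001156, chr6:86647042-86669161), Mxd3 (ENSMUSG00000021485, chr13:55325168-55329823) and Mxd4 (ENSMUSG00000037235, chr5:34173883-34187720). On the plus strand are Mxi1 (ENSMUSG00000025025, chr19:53310518-53375810), Mnt (ENSMUSG00000000282, chr11:74830920-74845725) and Mga (ENSMUSG00000033943, chr2:119897228-119969581). The library kit does not mark strand, so reads from antisense genes that overlap exons cannot be told apart. Exons of Mxd3 overlap those of Prelid1 over 105 bases, those of Mxd4 overlap Gm42846 over 514 bases, and those of Mxi1 overlap Gm10197 over 194 bases.

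Promoter sequences from RefSeq (GRCm38.p6, the mm10 assembly) were matched for 9 of the 10 members, all but Myc, giving 11 promoters because Mxi1 has 3. Each held 250 bases before and 50 bases after the start of transcription. The palindromic E-box CACGTG, the sequence that dimers of MAX bind, was found in the promoters of Max, Mxd4 and Mnt. That is in 3 of the 9 members with a promoter, or 3 of their 11 promoters, and in 7.15% of all 32851 promoters of that length. An E2F site, searched on both strands as TTTGGCGC, TTTCCCGC, TTTGCCGC or TTTCGCGC, was found in the promoter of Mycn only among these members, with 3 matches, the first 2 of which overlap, and in 2.26% of all promoters. Searches on both strands for the T-box sequence AGGTGTGA (1.28% of all promoters), the ETS site CCGGAAGT (3.89%) and the STAT site TTCCNGGAA (1.15%) found no match in these 11 windows. The promoters with a match are shown 5′ to 3′ on the strand of the gene, from 250 bases before to 30 bases after the start, because they place these letters in the genes whose levels follow. Capitals mark the E-box in Max (chr12:76962219-76962498, minus strand), Mxd4 (chr5:34187681-34187960, minus strand) and Mnt (chr11:74830674-74830953, plus strand), and the E2F matches in Mycn (chr12:12941807-12942086, minus strand). The first base of the E-box was at -3 in Max, so that it spans the start, at -219 in Mxd4 and at -123 in Mnt, and the E2F matches in Mycn began at -183, -179 and -168.
Max: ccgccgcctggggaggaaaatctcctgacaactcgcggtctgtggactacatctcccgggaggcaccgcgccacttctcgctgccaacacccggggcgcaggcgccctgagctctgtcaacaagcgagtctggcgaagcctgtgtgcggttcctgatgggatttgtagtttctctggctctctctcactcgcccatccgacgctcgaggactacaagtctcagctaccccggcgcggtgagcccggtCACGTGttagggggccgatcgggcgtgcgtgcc
Mxd4: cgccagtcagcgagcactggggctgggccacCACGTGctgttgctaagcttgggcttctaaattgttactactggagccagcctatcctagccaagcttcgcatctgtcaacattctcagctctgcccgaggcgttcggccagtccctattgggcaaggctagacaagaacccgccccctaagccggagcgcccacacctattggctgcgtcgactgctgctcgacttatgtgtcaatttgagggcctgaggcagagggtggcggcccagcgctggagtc
Mnt: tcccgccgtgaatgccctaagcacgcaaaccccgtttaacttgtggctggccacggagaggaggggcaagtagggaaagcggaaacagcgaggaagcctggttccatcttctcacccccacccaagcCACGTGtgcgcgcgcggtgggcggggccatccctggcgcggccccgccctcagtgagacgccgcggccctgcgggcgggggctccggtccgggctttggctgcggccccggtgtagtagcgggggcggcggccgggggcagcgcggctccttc
Mycn: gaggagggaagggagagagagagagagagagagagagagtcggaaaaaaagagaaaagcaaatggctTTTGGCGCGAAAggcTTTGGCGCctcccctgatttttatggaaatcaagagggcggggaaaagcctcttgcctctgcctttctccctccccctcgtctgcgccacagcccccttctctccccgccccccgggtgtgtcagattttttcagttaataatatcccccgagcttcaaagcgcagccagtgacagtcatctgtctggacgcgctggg

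The libraries held 7187576 to 16829549 counted reads. Naive markers (8 genes) summed to 2750 to 2910 counts per 1000000 (CPM) in mESC-2i, then 1580 to 1740 in mESC-ser and 55 to 61.5 in EpiLC, and formative markers (6 genes) to 88.1 to 100, 773 to 923 and 2220 to 2280 CPM, so the serum cells, although labelled primed, kept naive markers. Markers of trophoblast, mesoderm and streak, and neural cells were each highest in mESC-2i, at most 93.4, 122 and 178 CPM in sum, mostly from Tfap2c, T and Tubb3. Primitive endoderm and fibroblast markers peaked in mESC-ser at 33 and 83.4 CPM. Elf5, Mesp1 and Lum, from the trophoblast, mesoderm and fibroblast lists, had at most 3 counts in every library. Other genes of the fibroblast list were detected, led by Col1a1 at 49.1 CPM in mESC-ser and Thy1 at 29.5 CPM in EpiLC. The part of other cell types in the results was not tested. Fold changes moved with transcript length: across protein-coding genes the Spearman correlation of log2 fold change with exon length was 0.28 for mESC-ser against mESC-2i, -0.3 for EpiLC against mESC-2i and -0.498 for EpiLC against mESC-ser. For that reason each member's fold change was also computed with offsets fitted to length and GC content, which reduced the trend. Part of it remained: in EpiLC against mESC-ser the shortest of 8 length classes kept a median log2 fold change of 0.34. The longest class was at 0.063. The value with offsets is given beside the main one where it changes the direction, the call or the size. Scaling to total counts in place of TMM (trimmed mean of M-values) moved the all-gene median from -0.11 to -0.45 on the log2 scale for EpiLC against mESC-2i and from -0.068 to -0.41 for EpiLC against mESC-ser. The share of calls that were higher then went from 45.9% to 33.7% and from 48.4% to 37.4%. In these bulk libraries, fewer cells with a transcript and less transcript per cell cannot be told apart. The labels do not say whether libraries of a group came from separate cultures. The p-values weigh each difference against the spread between these libraries, which may not be the spread between cultures.

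Of the 10 members, 3 rose (Myc, Mycn and Mga) and 1 fell (Mycl) in mESC-ser against mESC-2i, by edgeR's quasi-likelihood test where called means a Benjamini-Hochberg adjusted p under 0.05 with a log2 fold change beyond 0.5 in either direction. Across all 15728 genes tested, 25.9% rose and 30.3% fell. In EpiLC against mESC-2i, 2 members rose (Myc and Mxd3) and 5 fell (Mycl, Mxd1, Mxi1, Mnt and Mga), while 32.0% of 15378 genes rose and 37.8% fell. EpiLC against mESC-ser had 1 member higher (Mxd3) and 5 lower (Myc, Mycn, Mxd1, Mnt and Mga), while 35.5% of 15345 genes rose and 37.8% fell. The counts of members lay on either side of these percentages, in a table in which most genes moved. The median log2 fold change of the members was 0.11, -0.45 and -0.51 in these comparisons, and that of all genes tested was -0.043, -0.11 and -0.068. The first pair of comparisons share the mESC-2i libraries, and each group enters 2 comparisons, so the contrasts are not independent. With length and GC offsets the counts of members became 4 higher and 2 lower, 2 and 4, and 2 and 5.

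**Figure D1:**
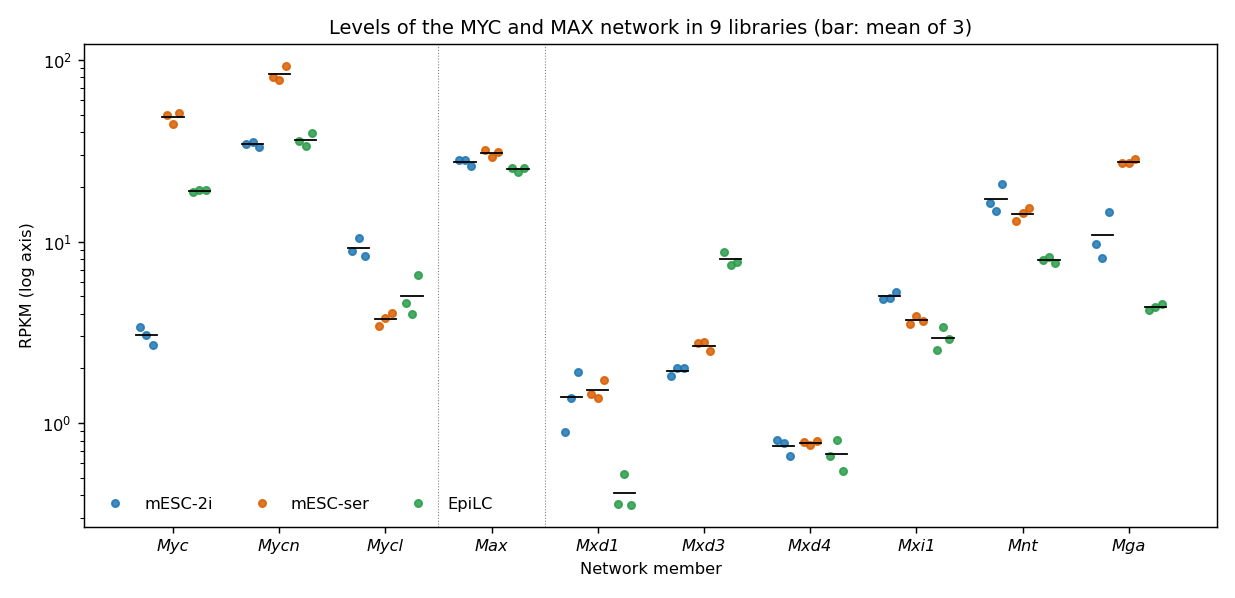
Level of each network member in each of the 9 libraries, in CPM per kilobase of exon (RPKM, log axis), by group, with 3 points per group and a bar at their mean. Myc ranged from 2.69 to 3.39 RPKM in mESC-2i and from 44.1 to 50.9 in mESC-ser, whereas Max stayed between 24.2 and 32 RPKM in all libraries.

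Myc, the founding member of the family, had 9.21, 8.26 and 7.3 CPM in the 3 mESC-2i libraries, 135, 120 and 138 CPM in mESC-ser, and 51.2, 52.1 and 52.2 CPM in EpiLC. The groups did not overlap: every mESC-2i library was lowest and every mESC-ser library highest, with EpiLC between. These levels rested on 73 to 99 reads per library in mESC-2i and 1441 to 2405 in mESC-ser. In EpiLC against mESC-2i the log2 fold change was 2.66 ± 0.12 (SE; a 6.31-fold rise; edgeR adjusted p = 1.88e-08), and in EpiLC against mESC-ser it was -1.27 ± 0.084 (edgeR adjusted p = 3.69e-10). For mESC-ser against mESC-2i it was 3.98 ± 0.13, the largest difference of any member in any comparison. With length and GC offsets the 3 values for Myc were 2.51, -1.77 and 4.30, called in the same directions.

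Mycn, the paralogue best known from neural and embryonic tissue, had 114, 116 and 109 CPM in mESC-2i, then 265, 255 and 305 in mESC-ser, and 118, 110 and 130 CPM in EpiLC. All mESC-ser libraries lay above the others, and the mESC-2i and EpiLC libraries overlapped. The rise in mESC-ser over mESC-2i was 1.26 ± 0.10 on the log2 scale (edgeR adjusted p = 2.43e-06), and EpiLC were 1.14 ± 0.089 below mESC-ser (log2 fold change -1.14; edgeR adjusted p = 3.28e-09). EpiLC against mESC-2i gave 0.075 ± 0.092 (edgeR adjusted p = 0.467), and -0.26 under total-count scaling, so its direction depended on the scaling. With the offsets these 3 values for Mycn were 1.53, -1.45 and 0.051, with the same calls.

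Mycl, the paralogue named after lung cancer, ran the other way. Its libraries held 35.8, 42 and 33.4 CPM in mESC-2i, then 13.8, 15.4 and 16.2 in mESC-ser, and 18.5, 16.2 and 26.4 CPM in EpiLC. Each mESC-2i library was above all others, while mESC-ser and EpiLC overlapped. Relative to mESC-2i the log2 fold change was -1.32 ± 0.13 in mESC-ser (edgeR adjusted p = 9.03e-06) and -0.87 ± 0.17 in EpiLC (edgeR adjusted p = 0.000826). EpiLC against mESC-ser gave 0.49 ± 0.15 (edgeR adjusted p = 0.00651), just under the fold threshold. With the offsets the Mycl values were -1.12, -0.79 and 0.38, with the same calls. The last difference passed that threshold without mESC-ser replicate 3 (0.53), EpiLC replicate 1 (0.56) or EpiLC replicate 2 (0.65), and with RLE (relative log expression) scaling or DESeq2 (0.52 each).

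**Figure D2:**
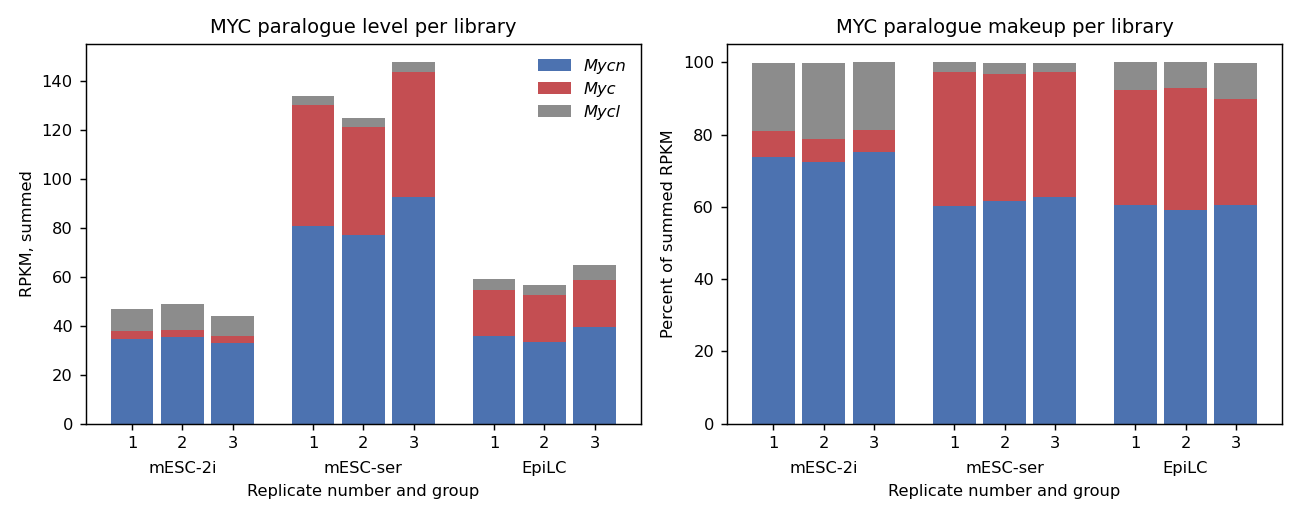
Summed RPKM of the MYC paralogues in each library (left, stacked from 0) and the percent of that sum from each paralogue (right), by group and replicate number. Mycn gave the largest part in all 9 libraries, and the part from Myc was 6.11% to 7.23% in mESC-2i and 29.5% to 37.2% in the other groups.

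Per kilobase of exon, the paralogues summed to 46.6 ± 2.41 RPKM (SD, n = 3) in mESC-2i, then 136 ± 11.2 in mESC-ser and 60.3 ± 4.35 in EpiLC. Mycn made up 73.8% ± 1.32, 61.6% ± 1.29 and 60% ± 0.798 of these sums. The share of Myc was 6.52% ± 0.616, 35.7% ± 1.41 and 31.7% ± 2.17, and that of Mycl 19.7% ± 1.43, 2.78% ± 0.245 and 8.28% ± 1.55. There was thus 11.4 times as much Mycn as Myc per kilobase in mESC-2i, then 1.73 times in mESC-ser and 1.9 times in EpiLC. EpiLC had a summed level 13.8 RPKM above mESC-2i with a makeup nearer to that of mESC-ser. Of 9 comparisons between groups of the summed level and of the shares of Myc and Mycn, 8 did not overlap and gave p = 0.1 by a two-sided exact permutation test (adjusted p = 0.113 over the 9), the smallest p that 3 against 3 libraries allow. The exception was the Mycn share in EpiLC against mESC-ser, which differed by -1.57 percentage points (exact permutation p = 0.3, adjusted p = 0.3). Under total-count scaling the summed level in EpiLC was only 1.24 RPKM above mESC-2i (exact permutation p = 0.6).

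Max, the obligate partner, had 101, 101 and 94.1 CPM in mESC-2i, then 115, 105 and 112 in mESC-ser, and 91.5, 86.9 and 91.8 CPM in EpiLC. The groups did not overlap, but they lay close together and none of the differences was called. Its log2 fold change was 0.14 ± 0.094 in mESC-ser against mESC-2i (edgeR adjusted p = 0.207) and -0.13 ± 0.084 in EpiLC against mESC-2i (edgeR adjusted p = 0.172). For EpiLC against mESC-ser it was -0.23 ± 0.079 (edgeR adjusted p = 0.0144), within the fold threshold except under total-count scaling (-0.57). The offsets gave 0.32, -0.091 and -0.37 for Max, none of them called. The MYC paralogues together came to 1.7 ± 0.0371 times the RPKM of Max in mESC-2i, then 4.41 ± 0.296 times in mESC-ser and 2.41 ± 0.126 times in EpiLC. All measured partners together came to 3.06 ± 0.297, 6.05 ± 0.369 and 3.38 ± 0.0973 times Max. These are ratios of transcripts, chosen after the levels had been seen and not tested. Their size depends on the length given to each gene, which for Max was 3598 bases of exon, while its longest transcript has 1942 bases.

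Mga, the largest protein of the network, carries a T-box domain beside its helix-loop-helix zipper and is the scaffold of PRC1.6. Its libraries held 149, 125 and 224 CPM in mESC-2i, then 414, 414 and 439 in mESC-ser, and 64.2, 66.8 and 69.4 CPM in EpiLC. The 3 groups were fully apart, with mESC-ser highest and EpiLC lowest. The log2 fold change was 1.32 ± 0.19 in mESC-ser against mESC-2i (edgeR adjusted p = 0.000128), -1.32 ± 0.19 in EpiLC against mESC-2i (edgeR adjusted p = 6.99e-05) and -2.59 ± 0.081 in EpiLC against mESC-ser (edgeR adjusted p = 7.47e-14). Mga has 15340 bases of exon, the longest of the members, and with length and GC offsets these values shrank to 0.56, -0.55 and -1.03, all still called in the same direction. The mESC-2i replicate 3 stood apart with 224 CPM, and without it the values were 1.61 and -1.02 against mESC-2i. That library also stood apart across genes, with a chi-square per degree of freedom of 12.6 and 28.3 against replicates 1 and 2. Between replicates 1 and 2 it was 3.85. In mESC-ser, replicate 3 likewise gave 10.9 and 11, against 1.61 between replicates 1 and 2.

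Mnt, a broadly expressed antagonist of MYC, had 75.2, 68.2 and 95.1 CPM in mESC-2i, then 60, 66 and 70.4 in mESC-ser, and 36.5, 38.1 and 35 CPM in EpiLC. EpiLC lay below both stem cell groups, which overlapped each other. Its log2 fold change in EpiLC was -1.12 ± 0.13 against mESC-2i (edgeR adjusted p = 1.61e-05) and -0.77 ± 0.089 against mESC-ser (edgeR adjusted p = 4.58e-07). In mESC-ser against mESC-2i it was -0.31 ± 0.13 (edgeR adjusted p = 0.0641). With the offsets these Mnt values were -1.04, -0.78 and -0.21, with the same calls.

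Mxd1, an antagonist that in many tissues comes on with differentiation, had 6.31, 9.68 and 13.5 CPM in mESC-2i, then 10.2, 9.65 and 12.3 in mESC-ser, and 2.53, 3.71 and 2.51 CPM in EpiLC. Again EpiLC were below both other groups, here from only 19 to 34 reads per library, and the stem cell groups overlapped with a wide spread in mESC-2i. The log2 fold change in EpiLC was -1.76 ± 0.30 against mESC-2i (edgeR adjusted p = 0.000263) and -1.79 ± 0.19 against mESC-ser (edgeR adjusted p = 1.56e-07), which were -1.31 and -1.20 with the offsets and still called. In mESC-ser against mESC-2i it was 0.072 ± 0.23 (edgeR adjusted p = 0.795), -0.061 with the offsets, and its sign also changed with the library left out, from -0.14 without mESC-2i replicate 1 to 0.37 without mESC-2i replicate 3.

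Mxd3, the antagonist known for expression in proliferating progenitors, was the member that went up in EpiLC among the antagonists. It had 4.29, 4.76 and 4.79 CPM in mESC-2i, then 6.54, 6.58 and 5.87 in mESC-ser, and 20.8, 17.7 and 18.3 CPM in EpiLC. All EpiLC libraries were above all others, and mESC-ser lay above mESC-2i. The log2 fold change in EpiLC was 2.02 ± 0.15 against mESC-2i (a 4.06-fold rise; edgeR adjusted p = 4.99e-07) and 1.65 ± 0.13 against mESC-ser (edgeR adjusted p = 3.88e-09), and these became 1.75 and 1.03 with length and GC offsets. In mESC-ser against mESC-2i it was 0.42 ± 0.16 (edgeR adjusted p = 0.0399), under the fold threshold, and 0.75 and called with the offsets. Prelid1, whose exons overlap on the other strand, averaged 220 CPM in mESC-2i, then 182 in mESC-ser and 414 in EpiLC, so it also was highest in EpiLC, and its part in the Mxd3 reads was not tested.

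Mxi1, a further MXD family antagonist, had 32.9, 33.4 and 36 CPM in mESC-2i, then 24.1, 26.6 and 24.8 in mESC-ser, and 17.2, 23 and 19.8 CPM in EpiLC. The groups did not overlap, and mESC-2i was highest. Its log2 fold change was -0.77 ± 0.13 in EpiLC against mESC-2i (edgeR adjusted p = 0.000231), which was -0.36 and no longer called with length and GC offsets. In mESC-ser against mESC-2i it was -0.47 ± 0.11 (edgeR adjusted p = 0.00334), short of the fold threshold, and called with the offsets (-0.72) and under upper-quartile (-0.50) or total-count scaling (-0.51). EpiLC against mESC-ser gave -0.25 ± 0.12 (edgeR adjusted p = 0.0522), 0.45 with the offsets and -0.59 and called under total-count scaling, so the order of these groups depended on the processing. Mxd4, the remaining antagonist, was low throughout, between 4.65 and 6.88 CPM in all 9 libraries, and the groups overlapped in every comparison. Its log2 fold changes were 0.051 ± 0.15, -0.13 ± 0.19 and -0.14 ± 0.17 for mESC-ser against mESC-2i, EpiLC against mESC-2i and EpiLC against mESC-ser. Under length and GC offsets these turned to -0.21, 0.40 and 0.68, of which the last was called.

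**Figure D3:**
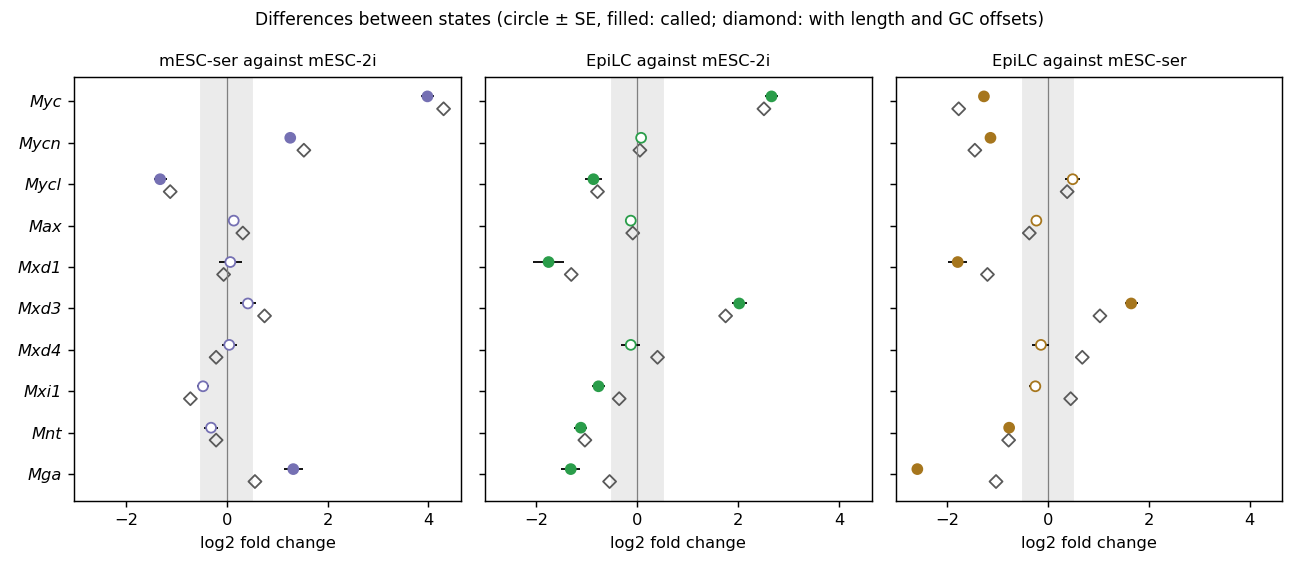
The log2 fold change of each member in the 3 comparisons: circles with bars of 1 SE (filled where called), diamonds with length and GC offsets, and a grey band within the fold threshold of 0.5. Myc lies at 3.98 and 2.66 against mESC-2i, and the diamonds of Mga are closer to 0 than its circles in all 3 panels.

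**Figure D4:**
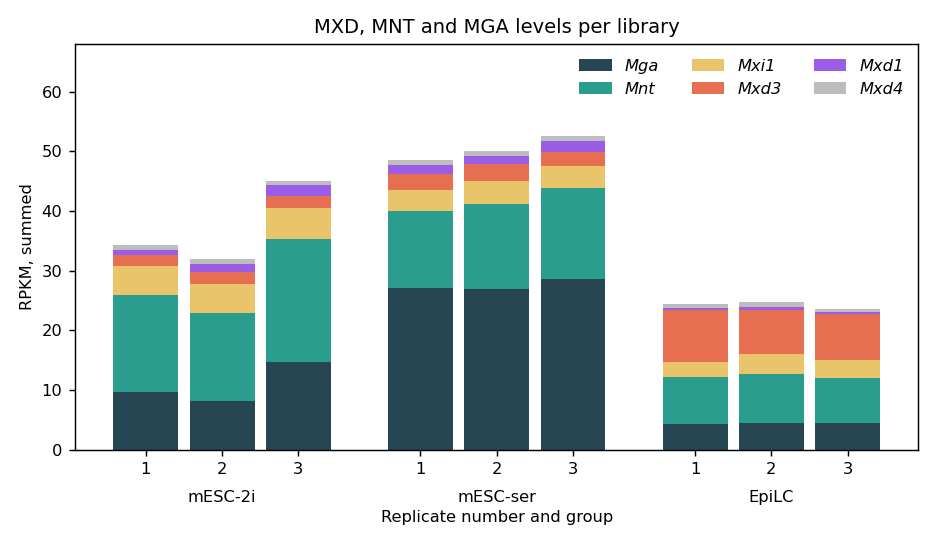
Summed RPKM of Mxd1, Mxd3, Mxd4, Mxi1, Mnt and Mga in each library, stacked from 0, by group and replicate number. Mga gave 53.9% to 55.7% of the sum in mESC-ser, Mnt 45.6% to 47.4% in mESC-2i, and Mxd3 30.1% to 36% in EpiLC.

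The makeup of the antagonists differed between the states. Their summed level was 37.1 ± 6.99 RPKM (SD, n = 3) in mESC-2i, then 50.3 ± 1.99 in mESC-ser and 24.3 ± 0.575 in EpiLC. Mnt made up 46.4% ± 0.903 of it in mESC-2i, then 28.1% ± 1.18 in mESC-ser and 32.5% ± 0.635 in EpiLC. Mga made up 28.8% ± 3.49, 54.7% ± 0.901 and 18% ± 1.04, and Mxd3 5.35% ± 0.9, 5.32% ± 0.522 and 32.9% ± 2.92. So the leading antagonist transcript per kilobase was Mnt in mESC-2i and Mga in mESC-ser, while Mnt at 7.9 ± 0.334 RPKM and Mxd3 at 7.99 ± 0.688 RPKM overlapped at the top in EpiLC. RPKM here carry no length and GC offsets, with which the rise of Mga in mESC-ser over mESC-2i was 0.56 in place of 1.32 on the log2 scale, so its part in the sums depends on that correction. They divide by all exon bases of a gene, 2369 for Mxd3 and 4627 for Mnt, whose longest transcripts have 1742 and 4590 bases. The order of Mxd3 and Mnt in EpiLC therefore depends on the length used. MYC paralogues were 55.9% ± 5.75 of the summed RPKM of all MAX partners in mESC-2i, then 72.9% ± 1.24 in mESC-ser and 71.2% ± 1.94 in EpiLC. That share did not overlap between mESC-2i (49.4% to 60.4%) and the other groups (69.6% to 73.8%), but overlapped between mESC-ser and EpiLC.

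Ordered by RPKM, Mycn led in every group, at 34.3 ± 1.18 in mESC-2i, then 83.5 ± 8.02 in mESC-ser and 36.2 ± 2.98 in EpiLC. In mESC-2i it was followed by Max, Mnt, Mga, Mycl, Mxi1, Myc, Mxd3, Mxd1 and Mxd4. Of these neighbours, Mga (8.16 to 14.6) overlapped Mycl (8.28 to 10.4), and Mxd3 overlapped Mxd1. In mESC-ser the order was Mycn, Myc, Max, Mga, Mnt, Mycl, Mxi1, Mxd3, Mxd1 and Mxd4, with overlap between Mycl and Mxi1. In EpiLC it was Mycn, Max, Myc, Mxd3, Mnt, Mycl, Mga, Mxi1, Mxd4 and Mxd1, with overlap of Mxd3 with Mnt and of Mycl with Mga. Myc thus stood among the low members in mESC-2i at 3.04 ± 0.352 RPKM and next to Mycn in mESC-ser at 48.3 ± 3.65 RPKM. RPKM divide by all exon bases of a gene, which for Max are 3598 against 1942 in its longest transcript. For Mycn they are 3295 against 2674, and for Myc 2717 against 2338. The place of Max relative to Mycn and Myc therefore depends on the length used.

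The MLX branch runs beside the network: MLX pairs with the glucose-responsive factors MLXIP (MondoA) and MLXIPL (ChREBP), and with some MXD proteins and MNT. Mlxip had 14.6, 15.4 and 19.5 CPM in mESC-2i, then 57.1, 55.7 and 72.3 in mESC-ser and 24.8, 21.5 and 20.3 CPM in EpiLC. It was highest in mESC-ser by 1.87 ± 0.15 on the log2 scale over mESC-2i (edgeR adjusted p = 2.29e-06), while EpiLC were at -1.41 ± 0.11 against mESC-ser (-0.69 with length and GC offsets). Mlxipl fell against mESC-2i in both other groups, by 1.48 ± 0.28 in mESC-ser and 1.77 ± 0.31 in EpiLC on the log2 scale. Its mESC-2i libraries were uneven, at 14.3, 14.4 and 30.2 CPM. Mlx itself lay between 29.5 and 49.5 CPM in all libraries and was not called in any comparison, but with the offsets it was called at 0.50 in mESC-ser against mESC-2i and at -0.79 in EpiLC against mESC-ser.

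Among 22 cofactors and stability factors of MYC, 10 rose and 1 fell in mESC-ser against mESC-2i, and the median log2 fold change was 0.41 (9 rose with length and GC offsets). Over all genes tested, 25.9% rose and 30.3% fell in that comparison, 32.0% and 37.8% in EpiLC against mESC-2i, and 35.5% and 37.8% in EpiLC against mESC-ser, and the counts of this and each further list are to be read against these shares. Nothing was tested between a list and all genes or between lists. Huwe1, a ubiquitin ligase of MYC, rose by 1.45 ± 0.18 (0.68 with the offsets), Skp2, another ligase, by 1.12 ± 0.14 (0.74), and Cip2a, which protects MYC from dephosphorylation, by 1.11 ± 0.14. In EpiLC against mESC-2i, 7 of the 22 rose, about the share of all genes, and 9 fell, with a median of -0.31, and with the offsets 8 rose and 3 fell with a median of 0.04, so the direction of the group depended on that correction. The helicase genes Ruvbl2 (1.42 ± 0.11) and Ruvbl1 (1.18 ± 0.089, 0.78 with the offsets) rose, and Wdr5, which helps MYC to chromatin, fell (-1.29 ± 0.089). The falls of the long genes Trrap (-1.17 ± 0.18) and Ep400 (-1.14 ± 0.18), subunits of acetyltransferase and remodelling complexes, were -0.29 and -0.37 with the offsets and not called. In EpiLC against mESC-ser, 3 rose and 10 fell (3 and 6 with the offsets).

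The 12 corepressors that MXD and MNT proteins recruit were also mixed. In mESC-ser against mESC-2i, 5 rose, with a median of 0.043 that was -0.0018 under total-count scaling, and by length and GC offsets 4 rose and 2 fell. Ncor1, a nuclear corepressor, rose by 1.42 ± 0.17 (0.92 with the offsets) and Sin3a, the scaffold that MXD proteins bind, by 0.98 ± 0.11. In EpiLC against mESC-2i, 2 rose and 5 fell (4 and 2 with the offsets). Sap18, a SIN3 complex subunit, rose by 1.90 ± 0.089, and Arid4a, another subunit, fell by 2.04 ± 0.20. EpiLC against mESC-ser had 4 higher, led by Sap18 (2.25 ± 0.089) and Sin3b (1.01 ± 0.082, 1.58 with the offsets), and 6 lower. With the offsets 3 were higher and 4 lower.

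Mga shares PRC1.6 with 13 further genes that were tested, of which 4 rose and 3 fell in mESC-ser against mESC-2i, 2 rose and 3 fell in EpiLC against mESC-2i, and 3 rose and 6 fell in EpiLC against mESC-ser. The balance of this list depended on the processing: with the offsets 6 rose and 4 fell in EpiLC against mESC-ser, and the median went from -0.017 to 0.31. Under total-count scaling 6 fell in EpiLC against mESC-2i, and the 2 rises there were no longer called. Tfdp1, the dimer partner of E2F6, had 62.5, 65.3 and 57 CPM in mESC-2i, then 151, 138 and 152 in mESC-ser and 23.2, 23.7 and 27.2 CPM in EpiLC, the same order of groups as Mga. Pcgf6, the Polycomb subunit that defines the complex, was instead highest in EpiLC, by 0.67 ± 0.094 on the log2 scale over mESC-2i (edgeR adjusted p = 6.65e-05). Of germline genes known as targets of this complex, 8 of 14 rose and 2 fell in mESC-ser against mESC-2i, and 8 of 15 rose and 2 fell in EpiLC against mESC-2i, with medians of 0.69 and 1.17. Mael, a piRNA pathway gene, rose by 3.32 ± 0.21 and 4.36 ± 0.15, and Dazl, a germ cell RNA-binding protein gene, fell by 3.64 ± 0.14 and 3.08 ± 0.12. In EpiLC against mESC-ser 7 rose and 3 fell with a median of 0.23, which was -0.11 under total-count scaling.

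**Figure D5:**
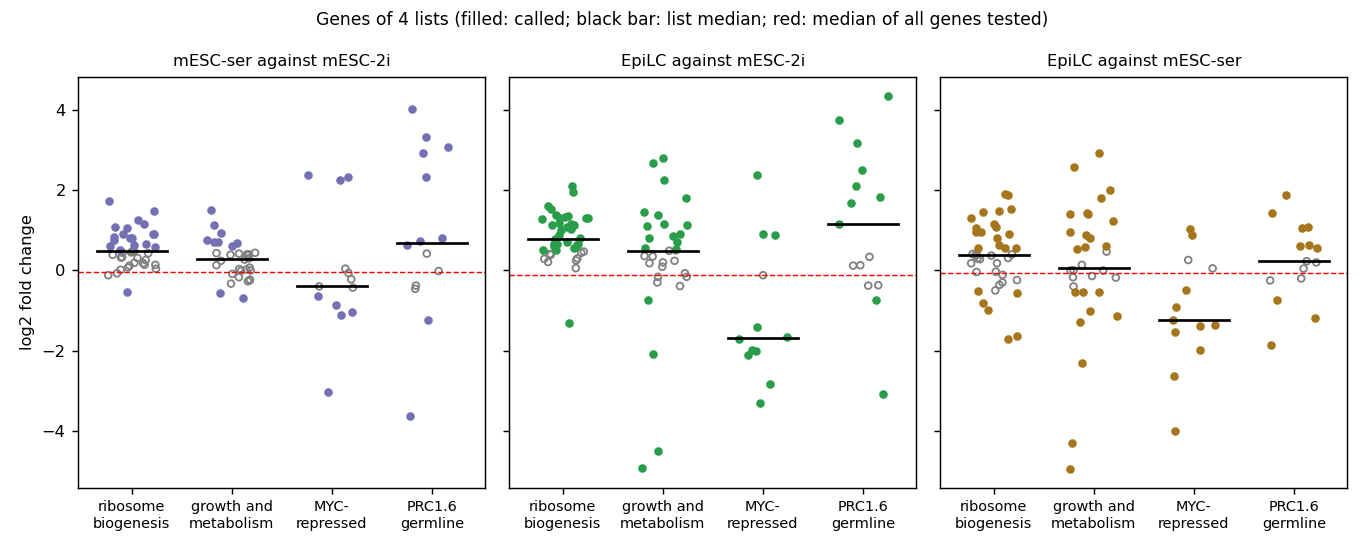
The log2 fold change of each gene of 4 lists in the 3 comparisons, filled where called, with the median of the list (black bar) and of all genes tested (red dashes). The median of the ribosome biogenesis genes is 0.48, 0.79 and 0.38, and that of the MYC-repressed genes is -0.40, -1.68 and -1.24. The values carry no length and GC offsets.

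Genes known as MYC targets in ribosome biogenesis and translation rose more often than they fell from mESC-2i. Of 40, 18 rose and 1 fell in mESC-ser (median log2 fold change 0.48), and 30 rose and 1 fell in EpiLC, with a median of 0.79. The leading genes differed: Utp20 (1.73 ± 0.14), Ddx21 (1.49 ± 0.10) and Rrp12 (1.26 ± 0.11), all for ribosomal RNA processing, in mESC-ser, and Wdr74 (2.11 ± 0.10) and Mrto4 (1.96 ± 0.10), for large subunit assembly, and Eif5a (1.62 ± 0.13), a translation factor, in EpiLC. These values carry no length and GC offsets, and the part of the length trend in which genes led was not tested. Dkc1, the pseudouridine synthase, was the 1 that fell in EpiLC (-1.31 ± 0.093). EpiLC against mESC-ser had 17 higher and 6 lower and a median of 0.38, in the comparison in which Myc and Mycn fell. Under total-count scaling that median was 0.038, with 12 higher and 10 lower, and the EpiLC count against mESC-2i was 19 higher and 1 lower.

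Of 32 targets in growth and metabolism, 8 rose and 2 fell in mESC-ser against mESC-2i, with a median of 0.29. The share that rose was about that of all genes (25.9%), and fewer fell (30.3% of all genes). Odc1, the rate-limiting enzyme of polyamine synthesis, had 202, 220 and 153 CPM in mESC-2i, then 566, 588 and 514 CPM in mESC-ser, with 516, 541 and 531 in EpiLC, so it was nearly level between the latter groups. In EpiLC against mESC-2i, 15 rose and 4 fell, with a median of 0.49. Srm, spermidine synthase, rose by 2.67 ± 0.12, Dctpp1, a nucleotide pyrophosphatase, by 2.80 ± 0.19 (1.77 with length and GC offsets), and Hspe1, a mitochondrial chaperonin, by 2.27 ± 0.13. The falls were led by Ccnd2, cyclin D2 (-4.94 ± 0.18), Tert, the telomerase catalytic subunit (-4.52 ± 0.36), and Hk2, hexokinase 2 (-2.09 ± 0.11). In EpiLC against mESC-ser 14 rose and 9 fell, with a median of 0.069 that was -0.27 under total-count scaling.

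Among genes that MYC is known to repress, 3 of 13 rose and 5 fell in mESC-ser against mESC-2i, close to the shares of all genes (25.9% and 30.3%), 3 of 12 rose and 8 fell in EpiLC against mESC-2i, and 2 of 13 rose and 9 fell in EpiLC against mESC-ser. Genes overall also fell more often than they rose in each comparison. With length and GC offsets 3 rose and 5 fell, then 2 and 9, and 1 and 8 in these comparisons. The list median in EpiLC against mESC-ser was then -0.75 in place of -1.24. Cdkn1a, the p21 cell cycle inhibitor, had 338, 369 and 322 CPM in mESC-2i against 41.7, 42.5 and 42.9 CPM in mESC-ser and 49.2, 44.7 and 51 CPM in EpiLC. Its log2 fold change was -3.04 ± 0.10 and -2.83 ± 0.10 against mESC-2i. Cdkn1c, the p57 inhibitor, went the opposite way, by 2.38 ± 0.17 in each of these comparisons. In EpiLC, Tob1, an antiproliferative gene, fell by 3.31 ± 0.17 and Txnip, which restrains glucose uptake, by 2.11 ± 0.091 on the log2 scale against mESC-2i.

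Over the 9 libraries and 9172 genes of at least 100 counts on average, the log2 CPM of Myc was most like that of Gja1 (Pearson r = 0.9979), Nefh (0.9973), Dnmt3l (0.9973), Mmachc (0.9972) and Tmcc3 (0.9965). Dnmt3l overlaps Aire on the other strand. All have their lowest mean in mESC-2i and their highest in mESC-ser, as for Gja1 with 44.2, 258 and 148 CPM in mESC-2i, mESC-ser and EpiLC. The pattern of Mycn was most like that of Foxk1 (0.9953), Psmd11 (0.9949), Kctd10 (0.9929), Sfpq (0.9923) and Pitpnc1 (0.9921), which were highest in mESC-ser and nearly level between the other groups, as for Foxk1 with 17.7, 70.8 and 18 CPM. Kctd10 overlaps Myo1h on the other strand. Within the network, r was 0.785 between Myc and Mycn and -0.9346 between Myc and Mycl. For Mycn it was 0.8363 with Max and 0.8249 with Mga. These values describe 3 groups of 3 libraries that share their scaling and depth, and carry no test.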

How the data were processed

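RNA from E14 mouse embryonic stem cells and EpiLC was sequenced by the authors, 3 libraries per group, and the deposited table holds their read counts per gene, which the authors made with FastQC, Trim Galore 0.6.6, HISAT2 2.2.1 on mm10 and featureCounts (Subread 2.0.1). The raw counts, 7187576 to 16829549 per library, were tested here pair by pair with edgeR 4.0.16 (filterByExpr, TMM, quasi-likelihood test, Benjamini-Hochberg adjustment over all genes tested). Genes were called at an adjusted p under 0.05 with a log2 fold change beyond 0.5 in either direction. CPM used TMM-scaled library sizes, and RPKM divided CPM by the exon length in GENCODE M21. Length and GC offsets came from natural splines (5 degrees of freedom) in R 4.3.3, fitted to the log2 CPM from edgeR on genes with a mean log2 CPM over 3. The code was tested on simulated data. All members and the MLX branch were named, plus at most 3 called genes per direction and comparison of each list (mean of 50 counts or more in the higher group) and the 5 genes most like Myc and Mycn. Genes named outside this rule, such as Prelid1, overlap a named gene on the other strand. The members and lists were chosen with earlier results of these data known. Replicate numbers are shared between groups: deviations of same-numbered libraries correlated at 0.129, 0.182 and 0.345 for mESC-ser with mESC-2i, and those of different numbers at -0.278 to 0.146, so that 1 differently numbered pair exceeded the lowest matched pair. Since each matched value was over 0.1, these numbers were taken as a possible pairing of the samples, from the data and not the labels. The main edgeR tests and the permutation tests left it out, so their p-values hold for unpaired libraries. It entered only the fit with a replicate block.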

Additional observations from a re-analysis of the deposited data

How the results depend on the processing

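Of 510 member fold changes recomputed under other scalings, filters, fits, offsets, thresholds or without 1 library, 485 kept their direction and their side of the thresholds, 11 became called, 4 were no longer called and 10 changed sign. The 10 were not called before the change, and 1 of them, Mxd4 in EpiLC against mESC-ser, was called after it. With length and GC offsets, mESC-ser against mESC-2i turned to -0.061 for Mxd1 and -0.21 for Mxd4, EpiLC against mESC-2i to 0.40 for Mxd4, and EpiLC against mESC-ser to 0.68 for Mxd4 and 0.45 for Mxi1. Total-count scaling turned Mycn in EpiLC against mESC-2i to -0.26. Leaving out 1 library gave ranges of -0.14 to 0.37 for Mxd1 and -0.031 to 0.1 for Mxd4 in mESC-ser against mESC-2i, and of -0.29 to 0.003 for Mxd4 in EpiLC against mESC-2i. At an absolute log2 fold change over 1, mESC-ser against mESC-2i had 4935 calls in place of 8843, by construction. The summed MYC paralogue level differed by 107 RPKM (longest transcript) in place of 89 for mESC-ser against mESC-2i, by 1.24 (total counts) in place of 13.8 for EpiLC against mESC-2i, and by -90.8 (longest transcript) or -89.4 (total counts) in place of -75.2 for EpiLC against mESC-ser; the cause was not tested. The replicate block changed no member call: Myc in mESC-ser against mESC-2i was 3.97 with that block. Same-numbered EpiLC libraries correlated at 0.0195, 0.109 and 0.112 with mESC-2i and at 0.0201, 0.0165 and 0.0335 with mESC-ser. Differently numbered ones reached at most 0.0105 and 0.0159. The matched values were thus small but higher, and whether EpiLC numbers pair with the others was not tested. Depth limits the low members, above all Mxd1 with 19 to 34 reads per library in EpiLC, and 3 libraries per group cannot give an exact permutation p under 0.1.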
